A study of Homo sapiens with 4 samples.

Results

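Among the TGF-beta family ligands, the transcripts of INHBA and TGFB1 were followed in H9, an established human embryonic stem cell line, after fibroblast growth factor 2 (FGF2) was withheld and then returned. Each ligand was read by 1 probe, chosen by its identifier: GI_4504698-S for INHBA and GI_10863872-S for TGFB1. These are 2 of the 24350 probes on the array that are named by the GI number of a sequence record, and no other probe shared either number. The files give only the identifier, so the pairing with the gene rests on that record and was not checked against a probe sequence.

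In both groups H9 cells had spent 2 days on matrigel in medium conditioned by mouse embryonic fibroblasts. They were then kept for 24 h in unconditioned medium that lacked FGF2 and held 30 uM SU5402, an inhibitor of FGF receptor kinases. The FGF2-starved group was taken at that point, and the FGF2 re-stimulated group, after washing, received FGF2 at 40 ng/ml for 4 h, again in unconditioned medium. Single-colour Illumina bead arrays were run on 2 samples per group, which came from separate numbered experiments, and the labels make the starved sample of an experiment the control of its re-stimulated sample. Washing, removal of the inhibitor and the 4 added hours came together with FGF2, so their effects cannot be told apart. No mouse or human feeder cells are named in the culture itself, and the samples are whole cultures, in which a change in the share of cells that make a transcript cannot be told apart from a change per cell.

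INHBA encodes the inhibin beta A chain. A dimer of this chain is activin A, which binds activin receptors and signals through SMAD2 and SMAD3, and activin is widely used to keep human embryonic stem cells undifferentiated. TGFB1 encodes transforming growth factor beta 1, which is secreted in a latent form, binds the TGF-beta receptors and signals through the same SMAD proteins. The comparison bears on whether the transcripts of such ligands change in these cultures when FGF2 is returned, together with the other steps named above. INHBA was detected in starved cells near the detection limit and rose in both experiments. TGFB1 was not detected on any of the 4 arrays, so these arrays do not measure a change of its transcript.

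The sequences upstream of both genes are shown as context for where each transcript starts, and the arrays measure no event there. They are the 250 bases before the start site in RefSeq's promoter windows, on the gene's strand (minus for both). In GRCh38.p14 the TGFB1 stretch is chr19:41353923-41354172 and the INHBA stretch is chr7:41703091-41703340. Capitals mark matches on either strand to any of 6 motifs searched. These are the TATA box, spelled TATAAA here, the CCAAT box and the GC box, spelled GGGCGG, which are common in core promoters. Added to them were sites of factors that lie downstream of growth factor kinases. The AP-1 site was spelled TGANTCA, the ETS site was searched only as CCGGAA, and the cyclic AMP response element was searched as TGACGTCA.
INHBA: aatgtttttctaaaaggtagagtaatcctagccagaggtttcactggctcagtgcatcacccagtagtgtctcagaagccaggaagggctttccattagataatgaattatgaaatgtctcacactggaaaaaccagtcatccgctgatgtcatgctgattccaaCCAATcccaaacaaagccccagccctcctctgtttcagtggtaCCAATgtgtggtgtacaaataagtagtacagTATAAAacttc
TGFB1: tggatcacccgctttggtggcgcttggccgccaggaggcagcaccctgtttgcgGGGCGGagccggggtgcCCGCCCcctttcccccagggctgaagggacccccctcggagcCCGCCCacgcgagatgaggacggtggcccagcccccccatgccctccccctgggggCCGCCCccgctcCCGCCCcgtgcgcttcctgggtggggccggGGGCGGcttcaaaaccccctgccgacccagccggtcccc

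The INHBA stretch was 42.8% G and C with 1 CpG, and the TGFB1 stretch was 76.8% G and C with 21 CpGs, against medians of 58.0% and 11.0 over 35116 windows of this length. The INHBA stretch held 1 match to TATAAA, beginning 11 bases before the start, and 2 to CCAAT, beginning 85 and 42 bases before it. The search took no account of where a match lies, and whether any of them is used was not tested. The TGFB1 letters held 6 GC boxes and none of the other motifs. The TATA box was found in 10.72% of all windows, the CCAAT box in 32.01% and the GC box in 42.64%. Neither stretch held the letters TGANTCA (6.57% of windows), TGACGTCA (1.65%) or CCGGAA (14.53%). Shorter or variant forms of these sites were not searched, so their absence is not shown. No searched motif overlapped another in these matches.

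The deposited signal is the mean intensity of a probe's beads on an array, and the spread of those beads is given beside it. The detection score runs from 0 to 1 and moves in steps of 1/775. It never fell as the signal rose within an array. Detection was taken as a score over 0.99. The lowest signal of a detected probe was 156.3 on the starved and 154.3 on the re-stimulated array of experiment 1, and 144.6 and 146.3 in experiment 2. Of the 24350 probes, 40.9% were detected on all 4 arrays and 50.9% (12400 probes) on none. The mean signal over all probes was lower on the re-stimulated array, with a ratio to the starved array of 0.928 in experiment 1 and 0.929 in experiment 2.

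For INHBA, the starved arrays read 173.6 with a bead spread of 7.8 in experiment 1 and 186.7 with a spread of 9.8 in experiment 2. The re-stimulated arrays read 346.8 (bead spread 14.4) in experiment 1 and 322.2 (bead spread 15.4) in experiment 2. Both re-stimulated arrays were thus above both starved arrays, with no overlap between the groups. In the normalized values, 22.6% of the tested probes were ordered this way. The detection scores of INHBA were 0.996 and 0.999 in starved cells, which is 3 steps and 1 step below the top of the score, and 1 on both re-stimulated arrays. The starved signals lay 17.3 and 42.1 units above the lowest signal of a detected probe on the same array, so the starved level was measured just above that limit. The re-stimulated signals lay 192.5 and 175.9 units above it.

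**Figure D1:**
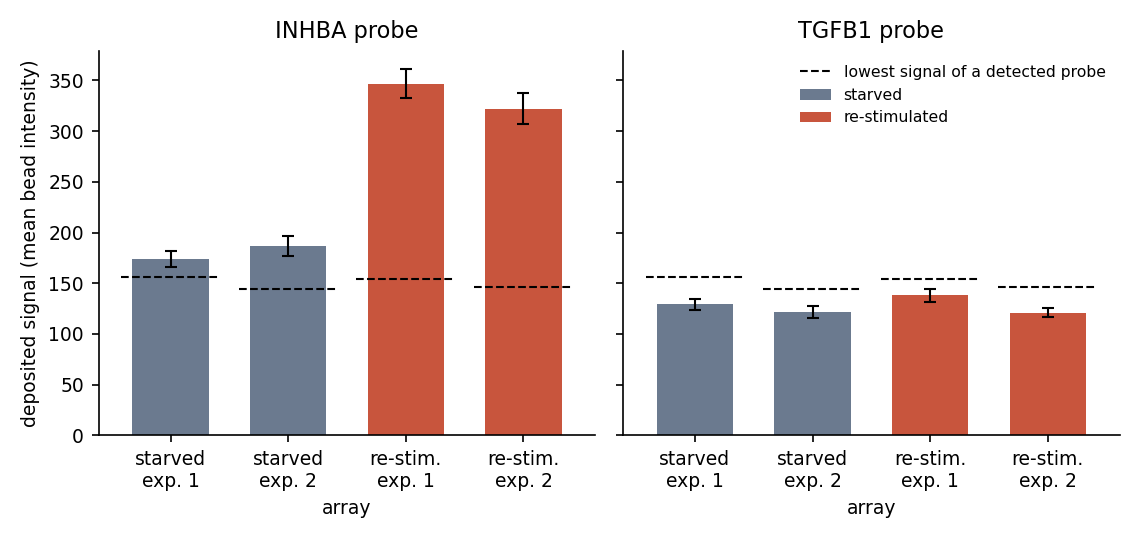
Deposited signal (mean bead intensity, linear axis from 0) of the INHBA and TGFB1 probes on each of the 4 arrays; bars are single arrays, error bars are the bead spread and dashed lines mark the lowest signal of a detected probe on that array. INHBA sits above the line on all 4 arrays, at 173.6 and 186.7 in starved and 346.8 and 322.2 in re-stimulated cells, while TGFB1 sits below it on all 4; bar heights of different probes are not comparable.

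Within experiment 1 the INHBA signal was 173.2 units higher after re-stimulation, which is 10.6 times the combined bead spread of that pair of arrays (16.4). Within experiment 2 it was 135.5 units higher, 7.42 times the combined spread (18.3). Arrays of the same group lay much closer together. The starved arrays differed by 13.1 units against a combined bead spread of 12.5, and the re-stimulated arrays by 24.6 units against 21.1. In order of signal, the starved arrays of experiments 1 and 2 were therefore neighbours separated by about their bead spread, as were the re-stimulated arrays of experiments 2 and 1, and the gap lay between the groups. The files do not say whether the bead spread is a standard deviation or a standard error, and it covers variation on an array only.

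After background correction and quantile normalization, INHBA had a log2 signal of 5.89 and 6.48 in starved cells and 7.87 and 7.94 in re-stimulated cells, in experiments 1 and 2. The group means were 6.18 ± 0.42 (SD, n = 2) and 7.91 ± 0.044 (SD, n = 2). The spread was thus mainly between the starved arrays, where the signal was lowest. INHBA rose 3.30-fold (log2 change 1.72, SE 0.18, 95% interval 2.51 to 4.33-fold, limma adjusted p = 2.51e-05), and it was higher in 2 of 2 experiments. By the same rule, 821 of 10886 tested probes (7.54%) were higher and 677 (6.22%) were lower. A rise of at least 2-fold was called for 203 probes (1.86%), INHBA among them. INHBA ranked 45 by size of rise among the 10886, so 0.404% of tested probes rose more.

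That test used the experiment as a block and borrowed most of its variance estimate from all probes. Without the block the adjusted p was 0.0205 in limma. When each array in turn was left out, and the block with it, the fold was 2.69 to 4.04 and the limma adjusted p was 0.233 to 0.396. Without a starved array it was 2.69-fold (that of experiment 1) and 4.04-fold (that of experiment 2), and without a re-stimulated array it was 3.37-fold and 3.23-fold in the same order. No probe was called in any of those 4 fits in limma, while 1315 to 2076 probes had an unadjusted p under 0.05. The smallest two-sided p that an exact permutation test allows here is 0.5 when arrays are exchanged within the 2 experiments, and 0.333 when the pairing is ignored.

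The rise of INHBA was larger in experiment 1 than in experiment 2 in the deposited, normalized and authors' values. With the floor on low signals doubled it was 2.55-fold and 2.67-fold. Both starved signals were under that doubled floor and were set to the same value. Those folds therefore compare only the re-stimulated arrays. On the normalized scale it was 3.96-fold (log2 change 1.98) in experiment 1 and 2.75-fold (log2 change 1.46) in experiment 2. In experiment 1, 37 tested probes had a larger rise, and in experiment 2, 71 had. The gap of 0.53 on the log2 scale between the experiments was exceeded by 10.4% of tested probes. Whether the experiments differ was not tested, since each holds 1 array per group.

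**Figure D2:**
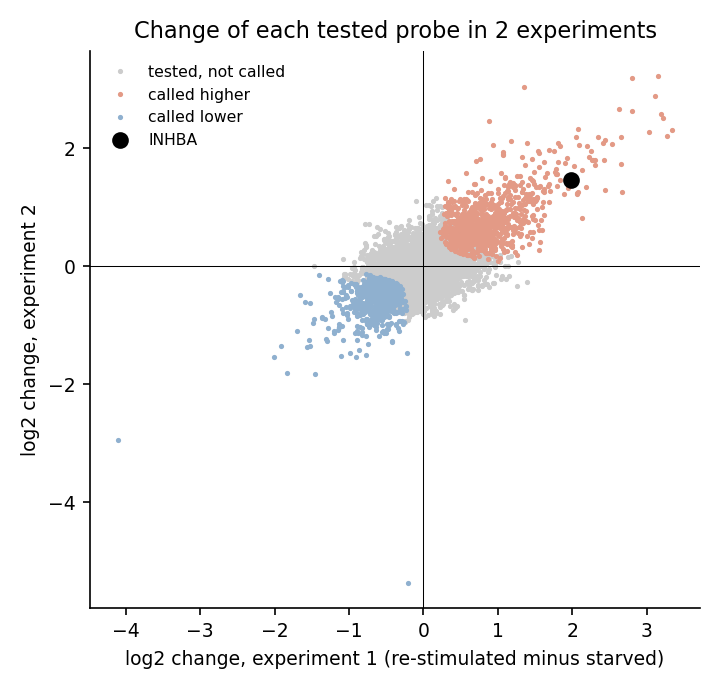
Log2 change of normalized signal, re-stimulated minus starved, in experiment 1 (x axis) and experiment 2 (y axis) for the 10886 tested probes; points are probes, coloured by the limma call, and the large black point is INHBA. INHBA lies at 1.98 and 1.46, in the upper right among the probes with the larger rises.

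How large the INHBA rise appears depends on how much of the starved signal is taken as background. The ratio of deposited signals, with nothing subtracted, was 2.00 in experiment 1 and 1.73 in experiment 2. In those ratios, 85 tested probes had a larger value in experiment 1 and 126 in experiment 2. The authors' processed values, which are given for INHBA on all 4 arrays, were 46.3 and 64.2 in starved cells and 243.3 and 220.5 in re-stimulated cells, in experiments 1 and 2. Their ratios were 5.26 and 3.44. These values are a straight line of the deposited signals, and the constant subtracted left 28.3% and 36.4% of the starved INHBA signal against 65.4% and 64.1% of the re-stimulated signal. Subtracting that constant alone gave ratios of 4.62 and 3.04. The factor then applied to each array was 1.14 times higher on the re-stimulated array in experiment 1 and 1.13 times in experiment 2, which makes up the rest. The direction was the same on each of these scales. In fits that join both experiments and use all 4 arrays, the lowest size was 1.93-fold, with quantile normalization but no background correction (limma adjusted p = 0.000116). The highest was 4.25-fold, in the fit to the authors' values (limma adjusted p = 0.000512).

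**Figure D3:**
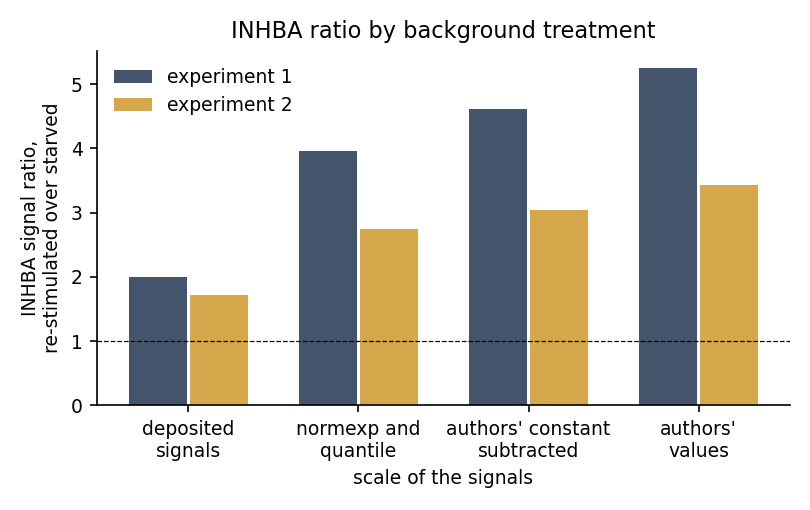
Ratio of INHBA signal, re-stimulated over starved (y axis, linear from 0), in experiments 1 and 2 on 4 scales of the same arrays; each bar is 1 pair of arrays and has no error bar, and the dashed line marks a ratio of 1. The ratio grows from 2.00 and 1.73 in the deposited signals to 5.26 and 3.44 in the authors' values, and every bar is above 1.

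For TGFB1, the starved arrays read 129.1 with a bead spread of 5.6 in experiment 1 and 121.6 with a spread of 5.8 in experiment 2. The re-stimulated arrays read 137.9 (bead spread 6.4) and 120.9 (bead spread 4.3). In these deposited signals the groups overlapped: the highest and the lowest of the 4 were both from re-stimulated cells. The detection scores were 0.668 and 0.626 in starved cells and 0.954 and 0.707 in re-stimulated cells, all under 0.99. By score, both re-stimulated arrays were thus above both starved arrays. The same order held in the normalized signals before the floor, at 26.8 and 26.4 in starved and 34.1 and 27.3 in re-stimulated cells. The order of the groups therefore depended on the scale, and it was not tested at this level. The signals lay 27.2, 23.0, 16.4 and 25.4 units below the lowest signal of a detected probe, in the order starved and then re-stimulated. The authors' table gives no value for TGFB1 on any array, as for the other probes with a score of 0.99 or less.

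Within experiment 1 the TGFB1 signal was 8.8 units higher after re-stimulation, 1.03 times the combined bead spread of 8.50. Within experiment 2 the difference was -0.7 units against a combined spread of 7.22. The 12400 probes detected on no array had a median difference of -4.1 units in experiment 1, with 90% of them between -20.8 and 12.4, and a median of -2.5 units in experiment 2, with 90% between -18.7 and 13.8. The TGFB1 difference was above that of 90.0% of these probes in experiment 1 and 57.8% in experiment 2, so it lay inside the central 90% both times. All 4 normalized TGFB1 signals were under the floor of 46.0 set for low signals, and the probe was not tested. No fold is given, because both groups were below detection. A change of the TGFB1 transcript was not detectable at this signal, which does not show that there was none.

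A looser limit changed the detection of TGFB1 on 1 array only. At a score over 0.95 it was detected on the re-stimulated array of experiment 1 and on no other, and the same held at a score over 0.90. It would still not have been tested, since no group had it on both arrays. Testing the probes detected at a score over 0.95 (50.1% of all probes, against 44.7%) left the INHBA fold at 3.30 but moved its limma adjusted p to 0.249, in a fit that called 0 probes, with 2200 at an unadjusted p under 0.05. This looser limit was chosen after seeing the data.

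The probes with the pattern most like that of INHBA were sought by Euclidean distance between log2 normalized signals over the 4 arrays, each probe centred on its own mean. The nearest was GI_38045914-S, at a distance of 0.14, which rose 4.08-fold in experiment 1 and 2.80-fold in experiment 2. The next was GI_4503298-S, at a distance of 0.15, which rose 3.48-fold and 2.57-fold. Both were detected on all 4 arrays. Their deposited signals were 221.3 and 265.7 in starved and 534.6 and 529.3 in re-stimulated cells for GI_38045914-S, and 569.4 and 706 against 1586.9 and 1535.6 for GI_4503298-S. As for INHBA, the starved signal was lower in experiment 1 than in experiment 2 and the rise was larger in experiment 1, which the measure of likeness selects for. With 4 arrays many probes can share a pattern, and the genes of these probes are not named in the sources used here. For TGFB1, with all 4 values under the floor, no such pattern was sought.

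The direction of the INHBA change was upward in all 20 alternative settings run, and its adjusted p passed the threshold in 14 of them. In many of these settings the direction could not have differed. Changes of filter, variance model or block, and a lower or absent floor, left the log2 change at 1.72. Both re-stimulated arrays lay above both starved arrays, so leaving out 1 array could not turn it either. The settings in which the adjusted p did not pass were the floor at 2 times its value, the looser detection limit and the omission of any 1 array. Other ligands, receptors, SMAD proteins, secreted inhibitors and targets of the pathway, and markers of the cell type, are not reported here, because 0 of the array's identifiers were matched to a gene by the RefSeq gene table.

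**Figure D4:**
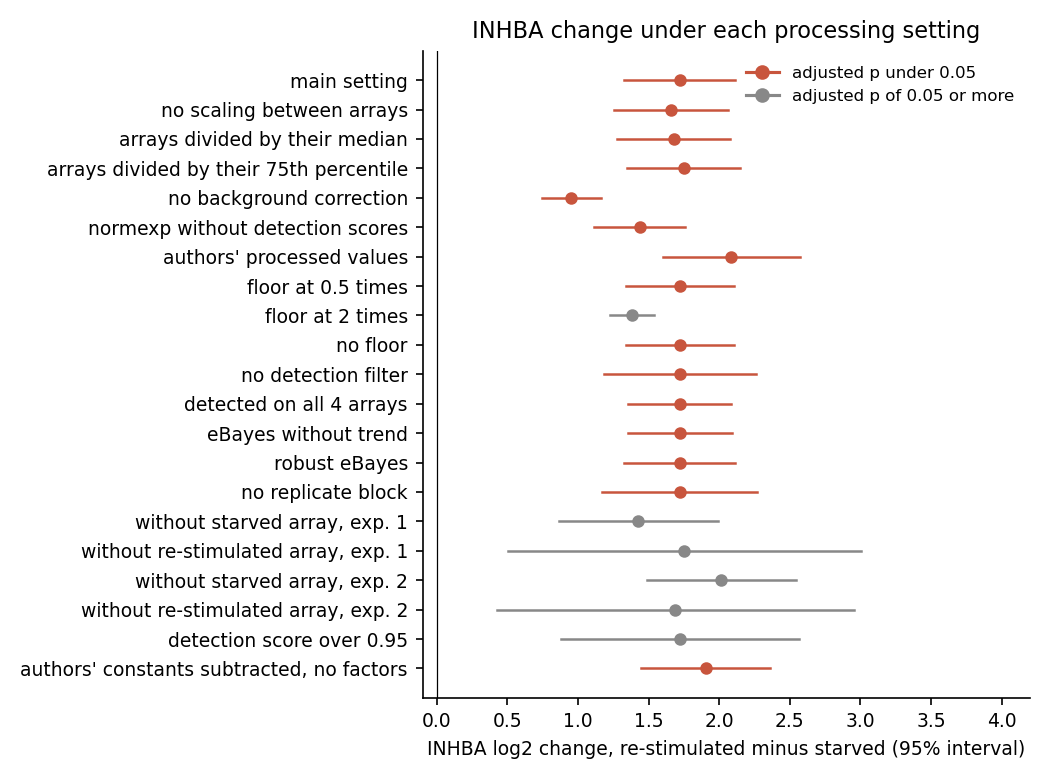
INHBA log2 change, re-stimulated minus starved (x axis), in the main setting and 20 alternatives (y axis); points are limma estimates, lines are 95% intervals, and colour marks whether the adjusted p was under 0.05. All points lie above 0, from 0.95 with no background correction to 2.09 with the authors' values, and the 6 grey points are the settings in which the call was lost. Settings that do not alter the INHBA signals share the estimate of the main setting.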

How the data were processed

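The authors deposited a mean bead intensity, a bead spread and a detection score per probe and array, per the file headers; the score is a fraction from 0 to 1. The submitters' processing notes name BeadStudio 1.0. The authors' value table holds intensities with a constant subtracted and a factor applied per array, chosen in a way not given in the sources used here. Per the labels, 300 ng of total RNA was amplified (6 h transcription) and labelled with Cy3.

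Intensities were corrected with limma 3.58.1 in R 4.3.3 (normexp with detection scores, offset 16), quantile normalized, floored at 46.0 (the lowest normalized signal among detected probes, as its median over the arrays) and put on the log2 scale. The offset and the floor shorten folds where signals are low. Probes detected on both arrays of either group, 10886 in all, were tested with lmFit and eBayes (trend), two-sided, with Benjamini-Hochberg adjustment over all of them at 0.05. The 4 control probes were left out of scaling and tests. The experiment was a block because the labels pair the samples; deviations of same-numbered arrays correlated at 0.35. The fit has 1 residual and 13.0 prior degrees of freedom. Nothing in the labels says that the experiments were separate cultures, so p-values may measure technical spread only, and precision is limited by the number of arrays. The procedure was also run on simulated arrays with known changes and no simulated difference between experiments. That run checked the recovery of large changes and their sign, and set no limit on false calls.

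Named probes are the 2 ligand probes and, for each that was tested, the 2 nearest in pattern. Both ligands, the lists and the tests were chosen with earlier results of these data known, and no p was adjusted over the 2 alone. Alternatives covered background, scaling, floor, filter, variance model, block, the authors' values and leaving out each array. Gene lists of the pathway were fixed but could not be compared with the probes, because the RefSeq gene table did not hold the array's identifiers.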

Additional observations from a re-analysis of the deposited data

How the results depend on the processing

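INHBA rose in each of the 20 alternatives, though settings of filter, variance model and block could not change its estimate. Its log2 change of 1.72 became 1.38 with the floor at 2 times (limma adjusted p = 0.293), a floor above both starved signals. The change stayed at 1.72 with a detection score over 0.95, and ranged from 1.43 to 2.02 with 1 array left out. The call was lost in those 6 settings. In the 14 settings that kept it, the limma adjusted p ranged from 6.87e-09 with no detection filter to 0.0205 with no replicate block. The prior degrees of freedom were infinite in the fit with no detection filter. The 821 higher and 677 lower probes became 0 and 0 with the floor at 2 times (1715 at an unadjusted p under 0.05), with a score over 0.95 (2200) and with any 1 array left out (1315 to 2076). The lone array was then assumed to vary like the other group. In those settings the prior of the fit fell to 0.828 to 1.49 degrees of freedom, against 13.0. Without the replicate block 186 were higher and 34 lower, and INHBA stayed called. With no detection filter the counts were 1515 higher and 1506 lower. The lower count was 1160 with no scaling (595 higher), 1082 with arrays divided by their median (648 higher), 268 with the authors' values (882 higher), 1304 with the authors' constants alone (647 higher) and 413 with eBayes without a trend (654 higher). The causes were not tested. The detection score over 0.95 and the authors' constants alone were chosen after seeing the data. Signal over background limits INHBA in starved cells and all 4 values of TGFB1.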
